A study of Mus musculus with 11 samples.

Results

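The genes described here are the 5 NF-kB subunits Nfkb1, Rel, Rela, Nfkb2 and Relb and 5 of their feedback inhibitors and regulators, Nfkbia, Nfkbib, Nfkbie, Tnfaip3 and Traf1. They were chosen by symbol, with earlier results of these data known, as 10 of the 48593 genes measured. All 10 had a mean level above the minimum for testing. RNA was sequenced from germinal center B cells, the B cells that mutate and select their antibody genes during an immune response. The cells carried the surface phenotype B220+PNA+CD95+ and were sorted from mouse spleen on day 12 after an intraperitoneal injection of sheep red blood cells. The study compared loss of either of 2 related histone acetyltransferases, CBP (gene Crebbp) and p300 (gene Ep300), in these cells.

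The CBP-KO group held 3 libraries of genotype Crebbp fl/fl;Ep300+/+;Cg1cre/+. The p300-KO group held 3 libraries of genotype Crebbp+/+;Ep300 fl/fl;Cg1cre/+. The WT group held 5 libraries of genotype Crebbp+/+;Ep300+/+;Cg1cre/+. Each group therefore carried the Cg1cre allele, a Cre recombinase at the immunoglobulin gamma 1 constant region locus that becomes active in B cells responding to antigen. The WT mice came from Crebbp crosses, so in the p300-KO comparison the cross and the loss of Ep300 cannot be told apart. Sex, litter, age and batch are not given in the sources used here. Libraries are named by group and number as in the labels.

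NF-kB proteins are dimeric transcription factors. In the canonical arm, IkB proteins hold dimers of Rel, Rela and the Nfkb1 product p50 in the cytoplasm until antigen receptor, CD40 or Toll-like receptor signals trigger IkB degradation. In the noncanonical arm, CD40 and BAFF receptor signals stabilize the kinase NIK, which leads to processing of the Nfkb2 product p100 to p52 and release of p52 with Relb. Many NF-kB inhibitors are themselves NF-kB target genes, and in germinal centers NF-kB activity is known from the light zone, where B cells meet antigen and T cells.

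Promoter sequence is shown first for the members whose start sites hold a kB match, since kB sites are the letters that NF-kB dimers bind. RefSeq promoter windows on GRCm38.p6 reach from 250 bases before to 50 bases after a gene start, and were found for 8 of the 10 members, at 11 starts. Nfkb1 and Relb had no entry. The 10-base kB consensus, searched on both strands, occurred in 5 members, at 7 of 11 starts, against 4.53% of 32544 promoter windows of the same length. Capitals mark the matches. Nfkb2 has 3 of the 11 starts, and 2 of its windows overlap and share the site at chr19:46305695-46305724, so these starts are not separate cases. A match describes the letters of the window and is no measure of binding.
Tnfaip3, minus strand, chr10:19015411-19015547: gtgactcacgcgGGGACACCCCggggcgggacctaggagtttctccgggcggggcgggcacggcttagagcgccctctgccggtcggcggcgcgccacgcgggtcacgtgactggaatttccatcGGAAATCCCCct
Rel, minus strand, chr11:23770971-23771219: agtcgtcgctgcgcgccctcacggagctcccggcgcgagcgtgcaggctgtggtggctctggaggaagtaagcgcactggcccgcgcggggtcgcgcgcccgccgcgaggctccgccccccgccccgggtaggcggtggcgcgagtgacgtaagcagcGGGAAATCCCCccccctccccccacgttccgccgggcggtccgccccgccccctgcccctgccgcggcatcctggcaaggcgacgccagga
Nfkbia, minus strand, chr12:55492648-55492897: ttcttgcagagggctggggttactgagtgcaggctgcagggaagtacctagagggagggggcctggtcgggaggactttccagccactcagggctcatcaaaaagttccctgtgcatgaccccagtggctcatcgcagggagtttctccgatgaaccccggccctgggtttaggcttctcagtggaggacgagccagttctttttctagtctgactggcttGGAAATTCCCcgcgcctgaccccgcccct
Nfkbie, plus strand, chr17:45555450-45555699: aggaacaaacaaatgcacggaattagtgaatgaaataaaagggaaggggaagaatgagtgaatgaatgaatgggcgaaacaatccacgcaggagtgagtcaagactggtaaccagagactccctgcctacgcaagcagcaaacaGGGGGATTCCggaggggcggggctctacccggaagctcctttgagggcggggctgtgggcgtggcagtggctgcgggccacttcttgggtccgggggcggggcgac
Nfkb2, plus strand, chr19:46304689-46304718: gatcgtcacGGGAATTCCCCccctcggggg
Nfkb2, plus strand, chr19:46305695-46305724: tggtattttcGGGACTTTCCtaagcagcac

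The 5 members with a match were the subunits Rel and Nfkb2, the inhibitors Nfkbia and Nfkbie, and Tnfaip3. In Nfkbia the match began 29 bases before the start, and in Tnfaip3 the matches began 125 and 12 bases before it. In Rel it began 92 bases before the start, and in Nfkbie 106 bases before it. In Nfkb2 matches began 39 and 11 bases before the first start and 236 bases before the second. The shared Nfkb2 site began 225 bases before the third start. The Nfkb2 matches at 11 and 236 bases are not printed above. Traf1, Nfkbib and Rela held no kB match in the window. The CREB site TGACGTCA, looked for because CBP is named for binding CREB, occurred in 0 of the 8 members with a window, against 1.8% of all windows. With 8 members and a site this rare, 0 is the likely count for any genes, so it does not set the members apart.

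Depth was 53550726 to 132861266 reads assigned to genes per library. Values are normalized counts, that is, counts per gene scaled by the authors with a size factor for each library. The germinal center genes Bcl6 and Mki67 had at least 29307 and 250234 normalized counts in each of the 11 libraries. Of the 11 germinal center markers listed, 3 (27.3%) fell and none rose in CBP-KO cells, against 4.88% lower and 3.48% higher of all tested genes. In p300-KO cells 2 (18.2%) of these markers fell and 2 (18.2%) rose, against 6.09% lower and 5.84% higher of all tested genes. Rgs13, the lowest of them relative to WT, averaged 4942 in CBP-KO cells, 7621 in p300-KO cells and 15914 in WT cells. In Ep300, the targeted gene of the p300-KO group, the 3 p300-KO libraries had 14829, 14796 and 13773 normalized counts, and the WT libraries ranged 19310.3 to 22498. The groups did not overlap, and the log2 fold change was -0.55 (limma, adjusted p = 0.00015; exact two-sided permutation p = 0.0179). Crebbp had 8595, 8606 and 7541 normalized counts in CBP-KO libraries and 7984 to 9584 in WT libraries (limma log2 fold change -0.10, adjusted p = 0.459). The values are per gene and not per exon, so Crebbp does not check the CBP-KO labels. Libraries p300-KO_18 and WT_46 stood apart. Library p300-KO_18 had high Xist (98751) and high Y-linked transcripts (a sum of 9852) together, whereas the other 10 libraries had 1 of them high. Whether it holds RNA of more than 1 mouse was not tested, so n = 3 for p300-KO counts libraries. Library WT_46 lay at 57.65 on the first principal component, with the other WT libraries between 11.34 and 28.31 and every knockout library below 0. The labels give each library its own number but not how samples were collected, so the p-values measure the spread between these samples.

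In CBP-KO cells 6 of the 10 members fell and none rose, against 4.88% of all 16515 tested genes that fell and 3.48% that rose. The 6 were the noncanonical subunits Nfkb2 and Relb, the IkB genes Nfkbia and Nfkbie, and Tnfaip3 and Traf1. They lay between 58.6% (Nfkb2) and 71.7% (Tnfaip3) of the WT mean. The canonical subunits Nfkb1, Rel and Rela did not pass the test, with means 94.3% to 96.7% of WT. The median log2 fold change of the 10 members was -0.52, and that of all tested genes was 0.006. All tests in this and the following paragraphs are limma with Benjamini-Hochberg adjustment over all 16515 genes unless another is named, and log2 fold changes are on the scale of log2(normalized count + 1). In sorted cells sequenced in bulk, fewer cells of a type and less RNA per cell cannot be told apart.

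**Figure D1:**
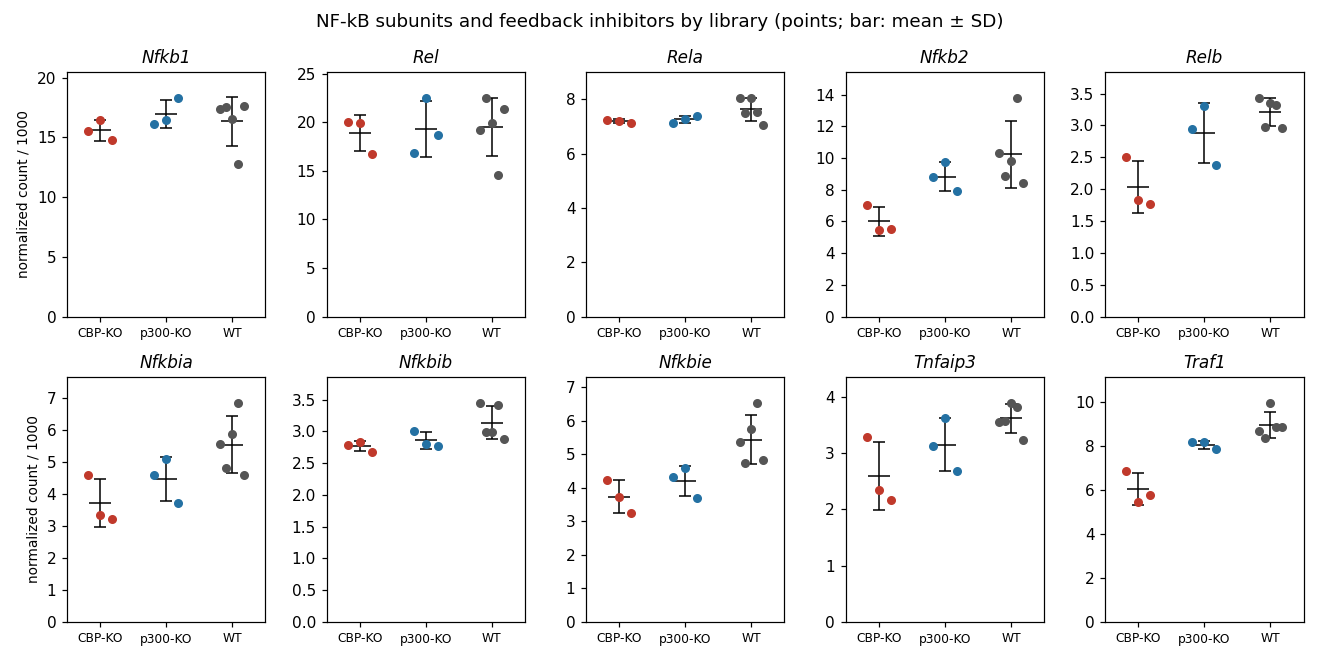
Normalized counts divided by 1000 (vertical axis) of the 10 genes in each of 3 CBP-KO, 3 p300-KO and 5 WT libraries; points are libraries, bars the mean ± SD. The CBP-KO points of Nfkb2, Relb, Nfkbia, Nfkbie and Traf1 lie below all WT points, whereas those of Nfkb1, Rel and Rela lie among them.

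The canonical subunits carry the inducible activity of the antigen receptor and Toll-like receptor pathways. Nfkb1, which encodes p105 and its product p50, had 15549, 16471 and 14736 normalized counts in CBP-KO cells, 16137, 16476 and 18284 in p300-KO cells, and 17396, 17526, 16517, 12760.5 and 17590.5 in WT cells. The groups overlapped, and the lowest value was that of WT_46. The log2 fold change was -0.06 in CBP-KO (95% interval -0.27 to 0.15, adjusted p = 0.775) and 0.06 in p300-KO (-0.15 to 0.27, adjusted p = 0.76), where it was negative without WT_46.

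Rel encodes c-Rel, a subunit that germinal center B cells need. It had 19967, 19903 and 16717 normalized counts in CBP-KO cells, 16819, 22467 and 18685 in p300-KO cells, and 19142, 22474, 19923, 14596 and 21369 in WT cells. Rela, the ubiquitous p65 subunit, had 7254, 7208 and 7127 in CBP-KO cells, 7141, 7260.1 and 7369 in p300-KO cells, and 8044, 7495, 8040.0, 7527 and 7057 in WT cells. Both genes overlapped between groups. Rel had a log2 fold change of -0.04 in CBP-KO (95% interval -0.32 to 0.24, adjusted p = 0.909) and -0.01 in p300-KO (-0.29 to 0.27, adjusted p = 0.979), and both signs turned in some alternative settings. Rela had -0.08 in CBP-KO (-0.19 to 0.03, adjusted p = 0.383) and -0.07 in p300-KO (-0.18 to 0.04, adjusted p = 0.427).

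The noncanonical subunits fell furthest. Nfkb2, which encodes p100, the precursor of p52, had 7064, 5450.4 and 5511 normalized counts in CBP-KO cells, 8809.6, 9724 and 7895 in p300-KO cells, and 10343, 8881, 9809, 13786 and 8415 in WT cells. All 3 CBP-KO libraries lay below every WT library, while p300-KO_18 and p300-KO_287 lay among the WT libraries and p300-KO_289 below them. The CBP-KO mean was 58.6% of WT, a log2 fold change of -0.76 (SE 0.14, adjusted p = 0.00621). In p300-KO the log2 fold change was -0.20 (adjusted p = 0.416).

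Relb, the partner of p52, had 2505, 1828 and 1764 normalized counts in CBP-KO cells, 2951, 3309.6 and 2376 in p300-KO cells, and 3430.5, 2983, 3348, 3325 and 2955 in WT cells. The CBP-KO libraries again lay below all WT libraries, with CBP-KO_1 the highest of the 3. The log2 fold change was -0.67 in CBP-KO (SE 0.12, adjusted p = 0.00556) and -0.17 in p300-KO (adjusted p = 0.443). Against p300-KO cells, CBP-KO cells had lower Nfkb2 (log2 fold change -0.56, SE 0.16, adjusted p = 0.0453) and lower Relb (-0.51, SE 0.14, adjusted p = 0.0384). Neither call was stable, and with 1 library or setting changed the adjusted p reached 0.151 for Nfkb2 and 0.148 for Relb. Without p300-KO_18 it was 0.11 for Nfkb2 and 0.109 for Relb.

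Among the IkB genes, Nfkbia encodes IkB alpha, the inhibitor that is resynthesized after canonical activation. It had 4566, 3340.5 and 3207 normalized counts in CBP-KO cells, 4574, 5084 and 3704 in p300-KO cells, and 5559.6, 4809.6, 5875, 6819 and 4574 in WT cells. The CBP-KO libraries lay below all WT libraries, with CBP-KO_1 only just under WT_288. The log2 fold change was -0.58 in CBP-KO (SE 0.15, adjusted p = 0.0295) and -0.31 in p300-KO (95% interval -0.63 to 0.01, adjusted p = 0.211).

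Nfkbie encodes IkB epsilon, an inhibitor known to act on c-Rel and p65 complexes in B cells. It had 4235, 3710.3 and 3244 normalized counts in CBP-KO cells, 4307, 4598 and 3695 in p300-KO cells, and 5360.1, 4744, 5742, 6516 and 4817 in WT cells. Both knockouts lay below all WT libraries. The log2 fold change was -0.54 in CBP-KO (SE 0.11, adjusted p = 0.0119) and -0.37 in p300-KO, where it just missed the threshold (95% interval -0.62 to -0.12, adjusted p = 0.0551).

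Nfkbib encodes IkB beta and had a smaller difference. It had 2791, 2833 and 2679 normalized counts in CBP-KO cells, 3009, 2801 and 2764 in p300-KO cells, and 3439.7, 2983, 2988, 3406 and 2872 in WT cells. The CBP-KO libraries did not overlap the WT libraries, but the log2 fold change of -0.18 did not pass the test (95% interval -0.33 to -0.02, adjusted p = 0.151). In p300-KO it was -0.13 (-0.28 to 0.02, adjusted p = 0.268).

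Tnfaip3 encodes A20, a ubiquitin-editing enzyme that shuts down NF-kB signalling. It had 3279, 2340.1 and 2159.5 normalized counts in CBP-KO cells, 3124, 3628 and 2688 in p300-KO cells, and 3554, 3579.6, 3885, 3826 and 3239 in WT cells. CBP-KO_1 lay above the lowest WT library, so the groups overlapped, and the log2 fold change was -0.50 (SE 0.13, adjusted p = 0.0296). In p300-KO it was -0.21 (adjusted p = 0.339).

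Traf1, an adaptor of TNF receptor complexes that NF-kB induces, gave the smallest adjusted p. It had 6877, 5477 and 5797 normalized counts in CBP-KO cells, 8179.5, 8175 and 7870.4 in p300-KO cells, and 8708, 8388, 9961, 8883 and 8875 in WT cells. All 3 CBP-KO libraries lay below all p300-KO and all WT libraries, and all 3 p300-KO libraries lay just below the lowest WT library. The log2 fold change was -0.57 in CBP-KO (SE 0.07, adjusted p = 0.000706) and -0.15 in p300-KO (95% interval -0.31 to 0.01, adjusted p = 0.233). CBP-KO cells were also lower than p300-KO cells, at -0.42 (SE 0.08, adjusted p = 0.00769).

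**Figure D2:**
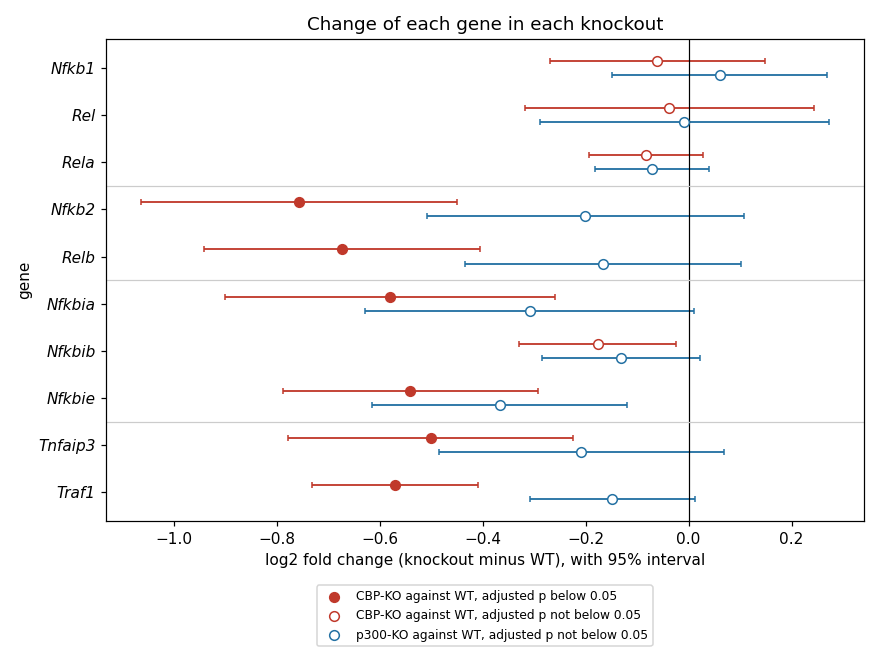
Log2 fold change against WT (horizontal axis, with 95% interval) of the 10 genes in CBP-KO (red) and p300-KO (blue), grouped by role; filled points passed an adjusted p of 0.05. The 6 filled points are all CBP-KO and lie between -0.76 (Nfkb2) and -0.50 (Tnfaip3).

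Of the 10 members, none passed in p300-KO cells against WT, against 11.9% of all tested genes in either direction (6.09% lower and 5.84% higher). Only Nfkbie had an unadjusted p below 0.05, edgeR called 0 and DESeq2 called 1. The median log2 fold change was -0.16, against -0.005 over all tested genes. Compared with p300-KO cells, CBP-KO cells were lower in 3 members, Nfkb2, Relb and Traf1, and higher in none, against 4.63% lower and 4.79% higher of all tested genes. All 10 fold changes were negative in that comparison, with a median of -0.22, although Rel was positive with library weights and without CBP-KO_55 or p300-KO_287. For Nfkbia, Nfkbie and Tnfaip3, which passed against WT, the test between the knockouts gave -0.27 (95% interval -0.63 to 0.09), -0.17 (-0.45 to 0.10) and -0.29 (-0.60 to 0.02), so a difference between CBP loss and p300 loss was not shown for them. Both knockouts were set against the same 5 WT libraries.

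Groups that did not overlap give a second count. In CBP-KO cells 6 of 10 members lay entirely below WT, against 8.47% of tested genes, and these were Nfkb2, Relb, Nfkbia, Nfkbie, Nfkbib and Traf1. In p300-KO cells Nfkbie and Traf1 did, against 9.4%. Nfkb2 and Traf1 lay entirely below p300-KO in CBP-KO cells, against 15.6%.

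By arm, 2 of 2 noncanonical genes fell in CBP-KO cells, with a median log2 fold change of -0.72. Of all tested genes 4.88% fell, and their median was 0.006. Of the 6 canonical genes, the 3 subunits and 3 IkB genes, 2 fell, both of them IkB genes, with a median of -0.13. The 95% intervals of Nfkbia (-0.90 to -0.26) and Nfkbie (-0.79 to -0.29) overlapped those of Nfkb2 (-1.07 to -0.45) and Relb (-0.94 to -0.41). In p300-KO cells the medians were -0.18 for the noncanonical and -0.10 for the canonical arm, against -0.005 over all tested genes. None passed there, against 11.9% of all tested genes. No test of one arm against the other was made.

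The ratio of the paralogous subunits within a library puts the arms side by side. The counts in it were not divided by gene length, so it compares groups and not the level of 1 gene with another. Per kilobase of exon, Nfkb2 (2235) exceeded Nfkb1 (1356) in WT cells. Nfkb2 counts were 38.6% ± 6.26 of Nfkb1 counts in CBP-KO cells (SD, n = 3), 52.3% ± 8.17 in p300-KO cells (n = 3) and 65.1% ± 24.6 in WT cells (n = 5). The range was 33.1% to 45.4% in CBP-KO cells, 43.2% to 59.0% in p300-KO cells and 47.8% to 108% in WT cells, the highest being WT_46. Relb counts were 28.2% ± 5.48 of Rela counts in CBP-KO cells, 39.7% ± 6.82 in p300-KO cells and 42.0% ± 1.59 in WT cells. CBP-KO libraries lay below all WT libraries in both ratios. Nfkbia counts were 19.6% ± 3.07 of Rel counts in CBP-KO cells, 23.2% ± 3.72 in p300-KO cells and 29.6% ± 10.3 in WT cells, and these ranges overlapped.

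**Figure D3:**
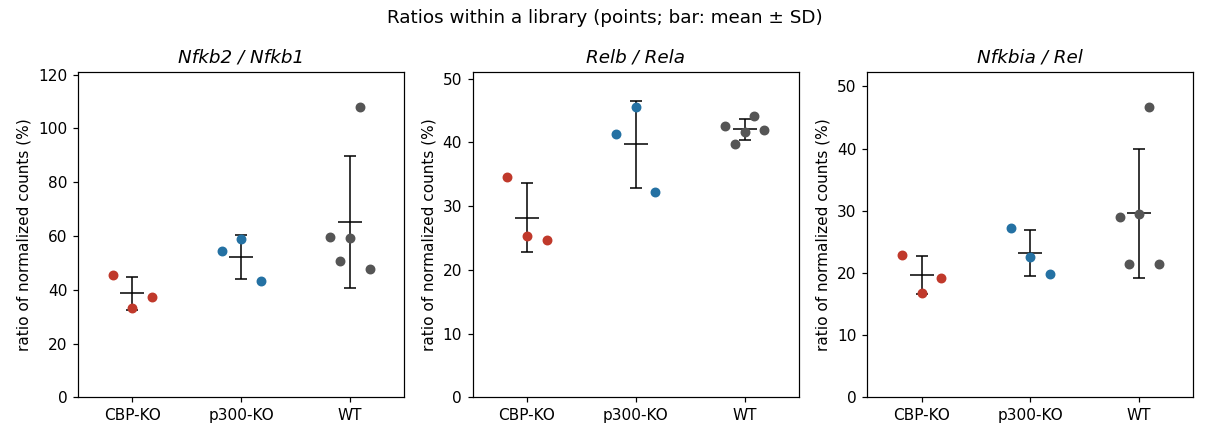
Within-library ratios of normalized counts (percent, vertical axis) for Nfkb2 over Nfkb1, Relb over Rela and Nfkbia over Rel in CBP-KO, p300-KO and WT libraries; points are libraries, bars the mean ± SD. Counts were not divided by gene length. The CBP-KO libraries lie below all WT libraries for the first 2 ratios and overlap p300-KO libraries, and WT_46 stands alone at 108% for Nfkb2 over Nfkb1.

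Correlations are over deviations from the group mean in 11 libraries, which share their size factors, and are given as a description. Among the 6 members that fell, Pearson r lay between 0.42 and 0.96 over 15 pairs, and between 0.69 and 0.98 without WT_46. Nfkb1 with these 6 ranged from -0.79 to -0.16, and from -0.47 to -0.32 without WT_46. Rel with the 6 ranged from -0.48 to 0.18, and from 0.01 to 0.46 without WT_46. Rela with the 6 ranged from 0.24 to 0.32, and from 0.28 to 0.51 without WT_46. Nfkbib with the 6 ranged from -0.07 (Traf1) to 0.65 (Nfkb2), and from -0.06 to 0.47 without WT_46. Nfkb1 with Rel gave 0.77, and 0.33 without WT_46.

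**Figure D4:**
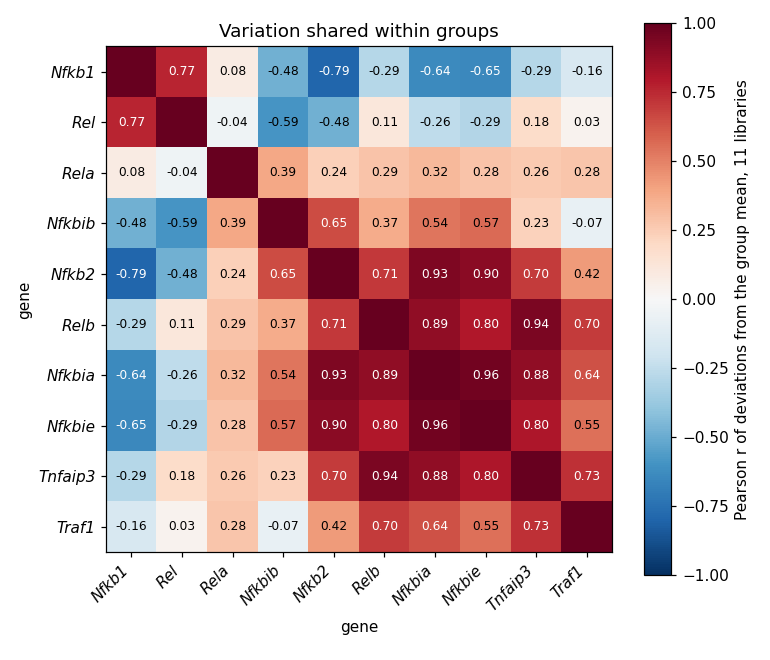
Pearson r of deviations from the group mean (color, -1 to 1) between the 10 genes over 11 libraries. The block at the lower right, Nfkb2 to Traf1, holds r between 0.42 and 0.96, and Nfkb1 is negative with each gene of it.

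The libraries differ by Xist or Y-linked transcripts, and the comparison was repeated within each class. Library p300-KO_18, with both high, was in neither class. WT_46 was in the Xist-high class. It had the highest Nfkb2 (13786), Nfkbia (6819) and Nfkbie (6516) of the WT libraries, which makes the Xist-high differences of these genes more negative. In the Xist-high class, 2 CBP-KO libraries against 3 WT libraries gave log2 differences of -0.98 for Nfkb2, -0.85 for Relb, -0.79 for Nfkbia, -0.66 for Nfkbie, -0.70 for Tnfaip3 and -0.62 for Traf1. In the Y-linked-high class the single library CBP-KO_1 against 2 WT libraries gave -0.36 for Nfkb2, -0.33 for Relb, -0.18 for Nfkbia, -0.31 for Nfkbie, -0.11 for Tnfaip3 and -0.45 for Traf1. All 6 were negative in both classes and smaller in the Y-linked-high class, where CBP-KO_1 was the highest CBP-KO library for each of these genes. In p300-KO cells the Xist-high library p300-KO_289 against the same 3 WT libraries gave -0.45 for Nfkb2, -0.45 for Relb, -0.61 for Nfkbia, -0.57 for Nfkbie, -0.44 for Tnfaip3 and -0.14 for Traf1. The Y-linked-high library p300-KO_287 against the same 2 WT libraries gave 0.10 for Nfkb2, 0.07 for Relb, -0.03 for Nfkbia, -0.19 for Nfkbie, 0.03 for Tnfaip3 and -0.20 for Traf1. Relative to WT, all 6 genes in CBP-KO cells and 5 of the 6 in p300-KO cells, Traf1 being the other, were lower in the Xist-high than in the Y-linked-high class. With 1 CBP-KO library in the Y-linked-high class and 1 p300-KO library in each class, the class and the library cannot be told apart.

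The calls did not rest equally on all libraries. Nfkb2, Relb and Traf1 passed against WT in CBP-KO cells under all 23 alternatives, with adjusted p up to 0.0409, 0.0405 and 0.00646. Nfkbia, Nfkbie and Tnfaip3 did not pass without CBP-KO_53 (adjusted p = 0.133, 0.0506 and 0.137) or without CBP-KO_55 (0.146, 0.0718 and 0.156). Nfkbia also did not pass without WT_4 (0.0571) or WT_41 (0.0645), and Tnfaip3 without WT_4 (0.0529), WT_7 (0.0525) or WT_41 (0.066). With WT_46 and p300-KO_18 both left out, Nfkbia had an adjusted p of 0.056 and Tnfaip3 of 0.0626.

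To set genes beside each other, normalized counts were divided by the length of all annotated exons of a gene, over all its transcripts. That length was 12.061 kb for Nfkb1 and 4.584 kb for Nfkb2. Which transcripts the cells express was not tested, so the order of genes depends on the annotated length. In WT cells Nfkbia had 3433 ± 557 normalized counts per kilobase (SD, n = 5), Rel 2612 ± 406, Rela 2485 ± 136 and Nfkb2 2235 ± 462. Nfkbia exceeded Rel by more than either SD, whereas Rel, Rela and Nfkb2 differed from each other by less than the SD of Rel. Next came Nfkbie at 1785 ± 239, Nfkbib at 1447 ± 122, Nfkb1 at 1356 ± 171, Traf1 at 1016 ± 67.2, Relb at 826 ± 57.2 and Tnfaip3 at 501 ± 35.5. In this order Nfkb2 and Nfkbie, and Nfkbib and Nfkb1, differed by less than the larger SD of the pair. In CBP-KO cells Rel was first at 2526 ± 249 (n = 3), with Rela at 2343 ± 20.9 and Nfkbia at 2301 ± 466 within that spread, and Nfkb2 at 1311 ± 200. On this scale Nfkb2 lay near Nfkb1 (1292 ± 72.0) and Nfkbib (1276 ± 36.6) in CBP-KO cells.

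The members lie on several chromosomes in GRCm38. Nfkb2 (chr19:46304320-46312385, plus strand) overlaps Psd on the other strand by 299 bases, and Psd had 749 to 2236 normalized counts per library. Nfkb2 also overlaps AC114539.1 by 1292 bases, a gene without values here. Nfkbib (chr7:28758251-28767512, minus strand) overlaps Sirt2 by 778 bases, with 3959 to 4739 counts, and Ccer2 by 718 bases, with 3.8 to 17.5 counts. Nfkb1 overlaps Gm43430 on the same strand by 3897 bases, with 5.8 to 44.6 counts. These overlaps are of whole gene spans, and how far exons overlap was not tested. The library kit does not keep strand, so reads where exons of both genes lie cannot be assigned to 1 gene.

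The genes most like Nfkb2 over the 11 libraries, in log2 level, were Eepd1 (r = 0.97), Cd40 (0.97), Tlr6 (0.96) and H2-M3 (0.96). Unlike the correlations above, r in this paragraph keeps the differences between groups. The genes were picked for the highest r among the tested genes, so r is a description only. Cd40, the receptor for T cell help, had 2867 ± 446 normalized counts in CBP-KO cells, 3871 ± 451 in p300-KO cells and 4464 ± 662 in WT cells. Those most like Nfkbia were Birc3 (r = 0.98), Ankrd33b (0.98), Nfkbie (0.97) and Tmem237 (0.97). Birc3, which encodes the ubiquitin ligase cIAP2, had 5989 ± 858 normalized counts in CBP-KO cells, 6997 ± 731 in p300-KO cells and 7759 ± 636 in WT cells.

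The other genes of the pathway were taken from 7 lists of 81 genes, of which 74 were tested. The lists were chosen with earlier results of these data known, so shares of lists here and below are a description. In CBP-KO cells 21 (28.4%) fell and 4 (5.41%) rose, against 4.88% and 3.48% of all tested genes, with a median log2 fold change of -0.16. In p300-KO cells 10 (13.5%) fell and 2 (2.7%) rose, against 6.09% and 5.84% of all tested genes, with a median of -0.05. Between the knockouts, 9 (12.2%) were lower and 1 (1.35%) was higher in CBP-KO cells, against 4.63% and 4.79%. The counts of higher genes were thus near or below those of all tested genes. In small lists, 1 or 2 genes that passed do not set a list apart from this background.

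Of 13 tested receptors that signal to NF-kB, 6 (46.2%) fell in CBP-KO cells and none rose, against 4.88% and 3.48% of all tested genes. Cd40 changed by -0.64 in log2 units (adjusted p = 0.008) and Tnfrsf13c, the BAFF receptor that feeds the noncanonical arm, by -0.51 (0.00716). Tnfrsf8, which encodes CD30, changed by -0.96 (0.00735) and the TNF receptor gene Tnfrsf1b by -0.33 (0.0105). Without CBP-KO_55, Cd40 (0.0529) and Tnfrsf1b (0.0537) did not pass. In p300-KO cells 1 of the 13 (7.69%, against 6.09% of all tested genes), Tnfrsf1b, fell (-0.45, adjusted p = 0.00143).

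Downstream of the receptors, 1 of 10 IkB kinase genes and regulators fell in CBP-KO cells, against 4.88% of all tested genes, which does not set the list apart. This was Map3k14, which encodes NIK, the kinase of the noncanonical arm (-0.38, adjusted p = 0.00522). It fell in p300-KO cells too (-0.28, adjusted p = 0.0173), but did not pass without p300-KO_18 (0.0587), without p300-KO_289 (0.0829) or with the Xist or Y-linked covariate (0.0621). There Ikbke, a kinase related to the IkB kinases, rose (0.67, adjusted p = 0.00881; 0.0509 without WT_46 and p300-KO_18). In the antigen receptor arm, the adaptor gene Bcl10 fell in p300-KO cells (-0.25, adjusted p = 0.0142), but did not pass without p300-KO_18 (0.0617). Of 9 TRAF and cIAP ligases, 2 (22.2%) fell in CBP-KO cells, against 4.88% of all tested genes, and none passed in p300-KO cells. In CBP-KO cells Traf3, which keeps NIK low, changed by -0.21 (adjusted p = 0.0312) and Birc3 by -0.38 (0.0277). Traf3 did not pass in 7 of 23 alternatives and Birc3 in 5. Among these were leaving out CBP-KO_53 (Traf3 0.0845, Birc3 0.13), CBP-KO_55 (0.164 and 0.146), WT_4 (0.059 and 0.0521), WT_41 (0.0618 and 0.0582) and, for Traf3, WT_7 (0.0602).

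Of 3 other IkB proteins, 2 (66.7%) fell in CBP-KO cells, against 4.88% of all tested genes. Bcl3, a nuclear IkB protein that works with p50 and p52, changed by -0.83 (adjusted p = 0.0105), and Nfkbid by -0.60 (0.0151). Without CBP-KO_55 neither passed (Bcl3 0.0575, Nfkbid 0.0628), nor did Nfkbid without CBP-KO_53 (0.0545). None passed in p300-KO cells, against 6.09% lower and 5.84% higher of all tested genes. Of 10 other negative regulators, 2 (20%) fell and 2 (20%) rose in CBP-KO cells, against 4.88% and 3.48% of all tested genes. Tnip1, a partner of A20 (-0.34, adjusted p = 0.00716), and Zc3h12a (-0.50, adjusted p = 0.014) fell, while Itch (0.26, adjusted p = 0.0118) and Otud7b (0.28, adjusted p = 0.0192) rose. Without CBP-KO_53, Zc3h12a (0.0578), Itch (0.052) and Otud7b (0.118) did not pass, nor did Zc3h12a without CBP-KO_55 (0.0696). In p300-KO cells 1 (10%), Otulin, a deubiquitinase of linear chains, fell (-0.29, adjusted p = 0.00272), against 6.09% of all tested genes.

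Of 25 tested target genes in activated B cells, 7 (28%) fell and 2 (8%) rose in CBP-KO cells, against 4.88% and 3.48% of all tested genes. The cell cycle gene Ccnd2 had 958, 744 and 778 normalized counts in CBP-KO cells and a WT mean of 2109 ± 302 (log2 fold change -1.35, adjusted p = 0.000191). The transcription factor gene Irf4 (-0.73, adjusted p = 0.0029), Myc (-0.66, adjusted p = 0.00586) and the surface receptor gene Slamf1 (-0.46, adjusted p = 0.0108) also fell. The chemokine gene Ccl22 (1.50, adjusted p = 0.0378) and the adhesion receptor gene Cd44 (0.29, adjusted p = 0.00448) rose. Ccl22 did not pass in 7 of 23 alternatives, including without CBP-KO_53 (0.19), CBP-KO_55 (0.087), WT_4 (0.0776), WT_41 (0.0677) or WT_46 (0.0561). In p300-KO cells 5 (20%) fell and 1 (4%) rose, against 6.09% and 5.84% of all tested genes, with Ccl22 higher (2.24, adjusted p = 0.00368) and Cd44 (-0.33, adjusted p = 0.00156), Gadd45b (-0.61, adjusted p = 0.00967), Fas (-0.33, adjusted p = 0.0118) and Marcksl1 (-0.25, adjusted p = 0.0252) lower. Without p300-KO_289, Gadd45b (0.0518), Fas (0.0577) and Marcksl1 (0.104) did not pass. Marcksl1 also did not pass without p300-KO_18 (0.0825), WT_4 (0.0508), WT_41 (0.053) or WT_288 (0.0528). Cd44 thus moved in opposite directions in the knockouts, and between them it was higher in CBP-KO cells (0.61, adjusted p = 6.6e-05).

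**Figure D5:**
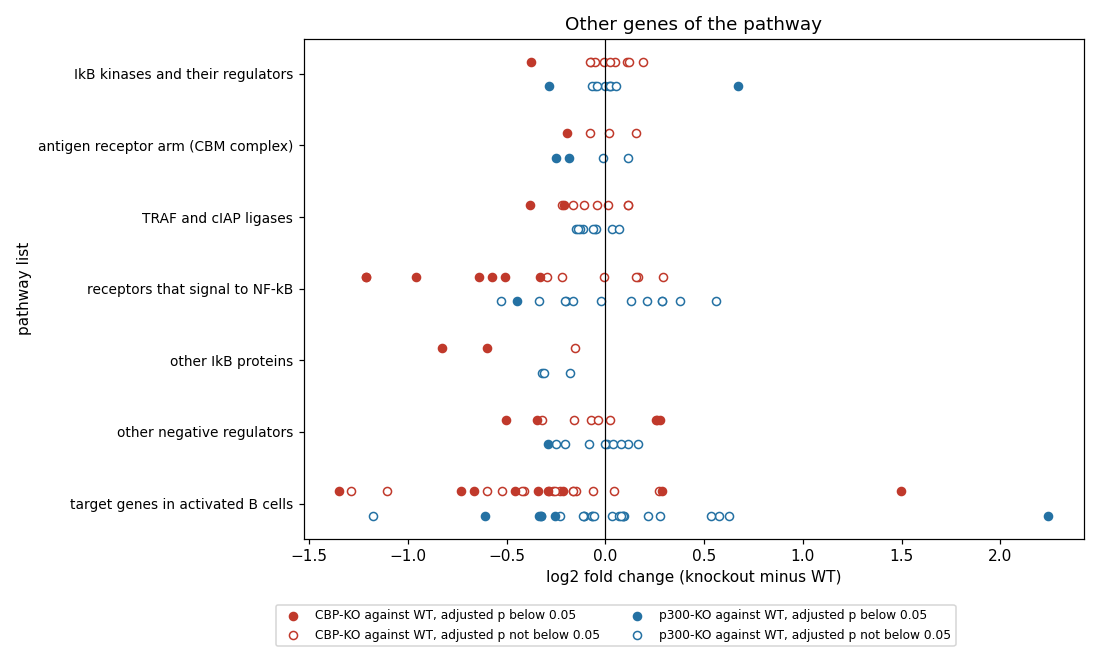
Log2 fold change against WT (horizontal axis) of the tested genes of 7 pathway lists in CBP-KO (red) and p300-KO (blue); filled points passed an adjusted p of 0.05. The 25 filled CBP-KO points include 21 below 0.

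Markers of other cells and states also differed between groups. The shares of all tested genes to set beside these counts are 4.88% lower and 3.48% higher in CBP-KO cells, and 6.09% lower and 5.84% higher in p300-KO cells. Of 12 tested macrophage and monocyte markers, 5 (41.7%) fell in CBP-KO cells and 1 (8.33%) in p300-KO cells. Their summed normalized counts were 2341 to 3352 in CBP-KO cells, 3105 to 4118 in p300-KO cells and 4181 to 10226 in WT cells. The highest sum was that of WT_46. Mpeg1 held the largest part of these sums, with means of 1372 in CBP-KO cells, 1466 in p300-KO cells and 3561 in WT cells. Of 5 dendritic cell markers 1 fell in each knockout, and sums were 3477 to 4066 in CBP-KO cells, 3250.0 to 3524 in p300-KO cells and 4750.4 to 6300.2 in WT cells. Flt3 held most of these sums, with means of 3067 in CBP-KO cells, 2552 in p300-KO cells and 4651 in WT cells. The dendritic cell sums thus rested largely on 1 gene, and neither these nor the macrophage sums measure numbers of such cells. The macrophage difference was not limited to Mpeg1. All 12 tested macrophage and monocyte markers had negative log2 fold changes in CBP-KO cells, with a median of -1.56, against 0.006 over all tested genes. In p300-KO cells 6 were negative and 6 positive, with a median of -0.08, against -0.005. Whether the B cells express these genes was not tested. Both stromal and endothelial markers tested fell in CBP-KO cells, and 1 rose in p300-KO cells, while 1 of the 7 listed was at 0 in every library. Of 14 light zone markers 8 (57.1%) fell in CBP-KO cells and 1 (7.14%) in p300-KO cells, with sums of 44570 to 65069 in CBP-KO cells, 73744 to 91518 in p300-KO cells and 62034 to 78179 in WT cells. The light zone list holds the member Nfkbia and 9 pathway genes, so it is not independent of the counts above. Of 12 dark zone markers 1 (8.33%), Ccnb2, rose in CBP-KO cells, and 1 fell in p300-KO cells. Of 6 tested plasma cell markers, 3 rose in p300-KO cells (Xbp1, Sdc1 and Jchain) and 1 fell in CBP-KO cells (Irf4), and 3 were lower in CBP-KO than in p300-KO cells. Summed plasma cell marker counts were 76163 to 88091 in CBP-KO cells, 91170.1 to 103853 in p300-KO cells and 69014 to 84938 in WT cells. The part of these cells and states in the NF-kB results was not tested.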

How the data were processed

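A single table with 11 library columns holds the RNA sequencing data, and groups follow the sample labels. Per the labels' protocols, libraries were made with the TruSeq RNA v2 kit, which does not keep strand. In the submitters' processing notes the build is mm10 and the tools are CASAVA 1.8 and, with no version, HISAT2, featureCounts and DESeq2. The authors deposited signal, namely read counts per gene scaled by a size factor for each library. Dividing each library by its own smallest step gave whole reads for 100% of values (tolerance 1e-06). With the edgeR quasi-likelihood test on those reads, 1323 genes passed in CBP-KO against WT, 1961 in p300-KO against WT and 1525 in CBP-KO against p300-KO. No other per-sample column was left unused (0 columns).

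Tests covered the 16515 genes whose mean normalized count reached 10, out of 48593, of which 22043 had no reads. Depth was 53550726 to 132861266 reads per library. The main test was limma 3.58.1 with a variance trend on log2(value + 1), in 1 fit of all 3 groups without covariates, two-sided, called at a Benjamini-Hochberg adjusted p below 0.05. Fitted on simulated data with known changes, the procedure was checked before use. Alternatives were a pseudocount of 0.5 or 8, no filter or a mean of at least 50, TMM scaling, quantile normalization, library weights, edgeR 4.0.16, DESeq2 1.42.0, only the 2 groups compared, a covariate of Xist-high or Y-linked-high libraries, leaving out each library, and leaving out WT_46 with p300-KO_18. Exon lengths and gene positions came from GENCODE M21 on GRCm38, the same assembly as mm10. Promoter sequences came from RefSeq on GRCm38.p6. Python 3.11.15, R 4.3.3, pandas 2.3.3, numpy 2.4.6 and matplotlib 3.10.9 were used.

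The text names all 10 members, and of each pathway list up to 4 genes per direction and comparison with the smallest p among those that passed. It also names the 4 genes most correlated with Nfkb2 and with Nfkbia, leaving out predicted genes and immunoglobulin or T cell receptor segments. Some results for single genes of the lists are not reported here, although the counts over the lists include them. The members and lists were chosen with earlier results of these data known.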

Additional observations from a re-analysis of the deposited data

Results flagged for a closer look

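In 37 sets of 5 WT values, 1 for each member, targeted gene and named pathway gene, the gap of the highest or lowest library to the nearest other was examined against the group's range. The test singles out about 5% of groups by chance, and it singled out 6 here. Nfkb1 had 12760.5 normalized counts in WT_46, against 16517 to 17590.5 in the other WT libraries. Gadd45b had 11478 in WT_46, against 7251 to 8334 in the others. Bcl10 had 5775 in WT_7, against 6352 to 6535. Traf3 had 8270.1 in WT_288, against 8561 to 8657. Tnfrsf1b had 2186 in WT_4, against 1847 to 1930.2, and Tnip1 had 5833 in WT_4, against 4961 to 5127. No explanation of these values was tested.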

How the results depend on the processing

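No paired analysis was made because no library number occurs in more than 1 group and litters are not given. Of 360 member values under alternatives other than leaving out 1 library, 346 kept their direction and side of the threshold, and of 330 values with 1 library left out, 291 did. With 1 library left out, 25 values lost a call, 4 gained 1 and 10 changed sign. Only the 6 members called in CBP-KO against WT and the 3 called between the knockouts could lose a call. These totals also hold results that did not pass, so they do not measure how stable the calls were. The median log2 fold change of all genes was at most 0.0204 in absolute value in every comparison and setting. For all genes, 1380 passed in CBP-KO against WT (2730 with library weights; 642 to 1541 leaving out 1 library), 1970 in p300-KO against WT (1169 to 2027) and 1556 in CBP-KO against p300-KO (library weights 2808, DESeq2 2350, Xist or Y-linked covariate 913; 745 to 1954). For the members, 6 passed in CBP-KO against WT (3 to 6; 3 without CBP-KO_53 or CBP-KO_55). In p300-KO against WT 0 passed (1 with library weights and 1 with DESeq2, 0 to 1 leaving out 1 library), the 1 being Nfkbie. In CBP-KO against p300-KO 3 passed (1 without a filter, 1 with the covariate; 1 to 4). Of the pathway genes, 25 passed in CBP-KO against WT (11 to 28; 13 without CBP-KO_53, 11 without CBP-KO_55), 12 in p300-KO against WT (6 to 13) and 10 in CBP-KO against p300-KO (library weights 25, DESeq2 21; 6 to 20, with 20 without WT_46).

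Signs turned only for genes that did not pass. Rel in p300-KO against WT was 0.0463 with quantile normalization and 0.0693 with the covariate, and -0.122 to 0.0867 leaving out 1 library. Rel in CBP-KO against p300-KO was 0.0536 with library weights, and -0.124 to 0.0847 leaving out 1 library. Rel in CBP-KO against WT was -0.138 to 0.0472, and Nfkb1 in p300-KO against WT -0.0263 to 0.0958, leaving out 1 library. The cause was not tested. With 3 libraries per knockout, a change that did not pass is not shown to be absent, and its 95% interval gives the sizes these data allow.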
